A study of Camelus dromedarius with 30 samples.

Results

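The genes described here are solute carriers of the SLC families: the genes whose symbol begins with SLC in the study's lists of differentially expressed genes or of differing proteins, as far as these were held in full, without SLC8A1, SLC9A3, SLC9A7, SLC12A7 and SLC17A3. There were 83 of them among the 22444 genes of the count table, matched by Ensembl identifier. Of these, 48 stood in the lists of differentially expressed genes, 43 in the protein lists and 8 in both. The first lists were drawn up from the same libraries, so for their members a difference between conditions is a description and the number of members past a threshold supports nothing. The protein lists came from proteins of the same camels, whether or not the RNA differed, and neither kind of list used the difference between medulla and cortex. SLC9A3R2 carries the prefix by name only, since it encodes a scaffold protein that binds a sodium/proton exchanger.

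RNA was sequenced from kidney cortex and kidney medulla of 15 male dromedary camels (Camelus dromedarius) aged 4 to 5 years, 5 under each of 3 conditions. Control camels had free access to water, dehydrated camels went without water for 20 days, and rehydrated camels went without water for 20 days and then drank freely for 3 days. Each of the 6 groups of tissue and condition therefore held 5 libraries, 1 per camel, and each camel gave both tissues.

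Solute carriers are membrane proteins that move sugars, amino acids, organic acids and bases, ions, vitamins and metabolites across the plasma membrane or the membranes of organelles. In the kidney, the proximal tubule, which lies mainly in the cortex, reclaims most filtered nutrients and secretes organic anions and cations through such carriers. Cells of the medulla live in concentrated fluid and take up urea and small organic osmolytes such as betaine, taurine and myo-inositol through carriers of their own.

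The libraries held 12634346 to 20005136 counted read pairs on genes. Levels are given in CPM, counts scaled to a common library total with TMM factors, and always in the order of libraries 1 to 5 of a group. Levels of different genes are compared only as CPM per kb of exon length. Differences are log2 fold changes with their standard error (SE) from 1 edgeR quasi-likelihood fit of all 30 libraries, and a gene is called when its p-value, adjusted by the Benjamini-Hochberg method over the 15376 genes tested, is under 0.05. SLC29A4 fell under the filter on low counts, which left 82 members tested. A member not called in this fit may still stand in the study's own lists, which came from DESeq2. In these bulk samples, fewer cells of a type and less RNA per cell cannot be told apart.

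Of 32 markers of kidney cell types in fixed lists, 12 carried an identifier, and all of these but HBB of red blood cells were above 0 in every library. Symbols came only from the study's lists of differing genes and proteins, so these 12 were not chosen free of differences between conditions. Their calls between conditions are descriptions. UMOD of the thick ascending limb ran from 2790 to 4436 CPM in control, 4545 to 7460 CPM in dehydrated and 2626 to 4950 CPM in rehydrated cortex, and from 10590 to 20960 CPM over the medulla. GATM, a proximal tubule enzyme, stood at 219.6, 281, 152, 618 and 266 in control, 299, 52.6, 97.3, 235 and 81.3 in dehydrated and 352, 317, 259, 946 and 835 CPM in rehydrated camels in the cortex. The medulla gave 49.6, 15.4, 66.3, 227 and 200 in control, 86.0, 77.3, 12.2, 81.5 and 20.1 in dehydrated and 51.0, 66.8, 84.5, 172 and 160.2 CPM in rehydrated camels. Medulla control library 2 and medulla dehydration library 3 were the lowest of their groups for GATM and for several carriers below. In the dehydrated cortex 3 markers were called higher than in controls, namely PVALB of the distal convoluted tubule (log2 fold change 2.21, adjusted p = 0.00156), AQP3 of the collecting duct (2.36, adjusted p = 0.0166) and PECAM1 of the endothelium (0.74, adjusted p = 0.00431). PVALB was low, at 0.742 to 1.18 CPM in control and 3.18 to 5.82 CPM in dehydrated cortex. The summed level of the 2 endothelial markers was 191.7 to 228 CPM in control and 324 to 366 CPM in dehydrated cortex, and that of the 2 markers of principal cells 165 to 251 CPM and 212 to 313 CPM. PECAM1 made up most of the first sum and AQP2 most of the second. The other endothelial marker VWF (0.30, adjusted p = 0.614) was not called in the dehydrated cortex, and neither was AQP2 (0.22, adjusted p = 0.745). UMOD (0.73, adjusted p = 0.0843) and GATM (-1.01, adjusted p = 0.482) were not called there. In the dehydrated medulla ATP6V1B1 of the intercalated cells was called lower (-0.82, adjusted p = 0.00427). In rehydration against dehydration of the cortex, PVALB (-1.36, adjusted p = 0.0266), AQP3 (-2.38, adjusted p = 0.0169) and PECAM1 (-0.78, adjusted p = 0.00345) were called lower. In that of the medulla, ATP6V1B1 (1.07, adjusted p = 0.000201) and COL1A1 of fibroblasts (1.20, adjusted p = 0.0415) were called higher. RNA integrity numbers averaged 8.1 ± 0.5 (SD, n = 5) in control cortex and 8.5 ± 0.5 in control medulla. They averaged 7.7 ± 0.2 in dehydrated cortex and 8.8 ± 0.2 in dehydrated medulla. In rehydrated camels they averaged 7.6 ± 0.6 in the cortex and 8.7 ± 0.4 in the medulla. The part of cell makeup in the differences below was not tested, and RNA integrity was a covariate in 1 of the alternatives given at the end.

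Among the members with the highest means per kb over the 30 libraries were the mitochondrial ADP/ATP carrier SLC25A4 (369 CPM per kb), the glucose-6-phosphate carrier SLC37A4 (184 CPM per kb) and the organic anion transporter SLC22A8 (168 CPM per kb). At the low end stood SLC29A4 (0.0769 CPM per kb), SLC16A14 (0.127 CPM per kb) and SLC9A4 (0.281 CPM per kb). The map of levels by library shows that the main division in their levels ran between the tissues.

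**Figure D1:**
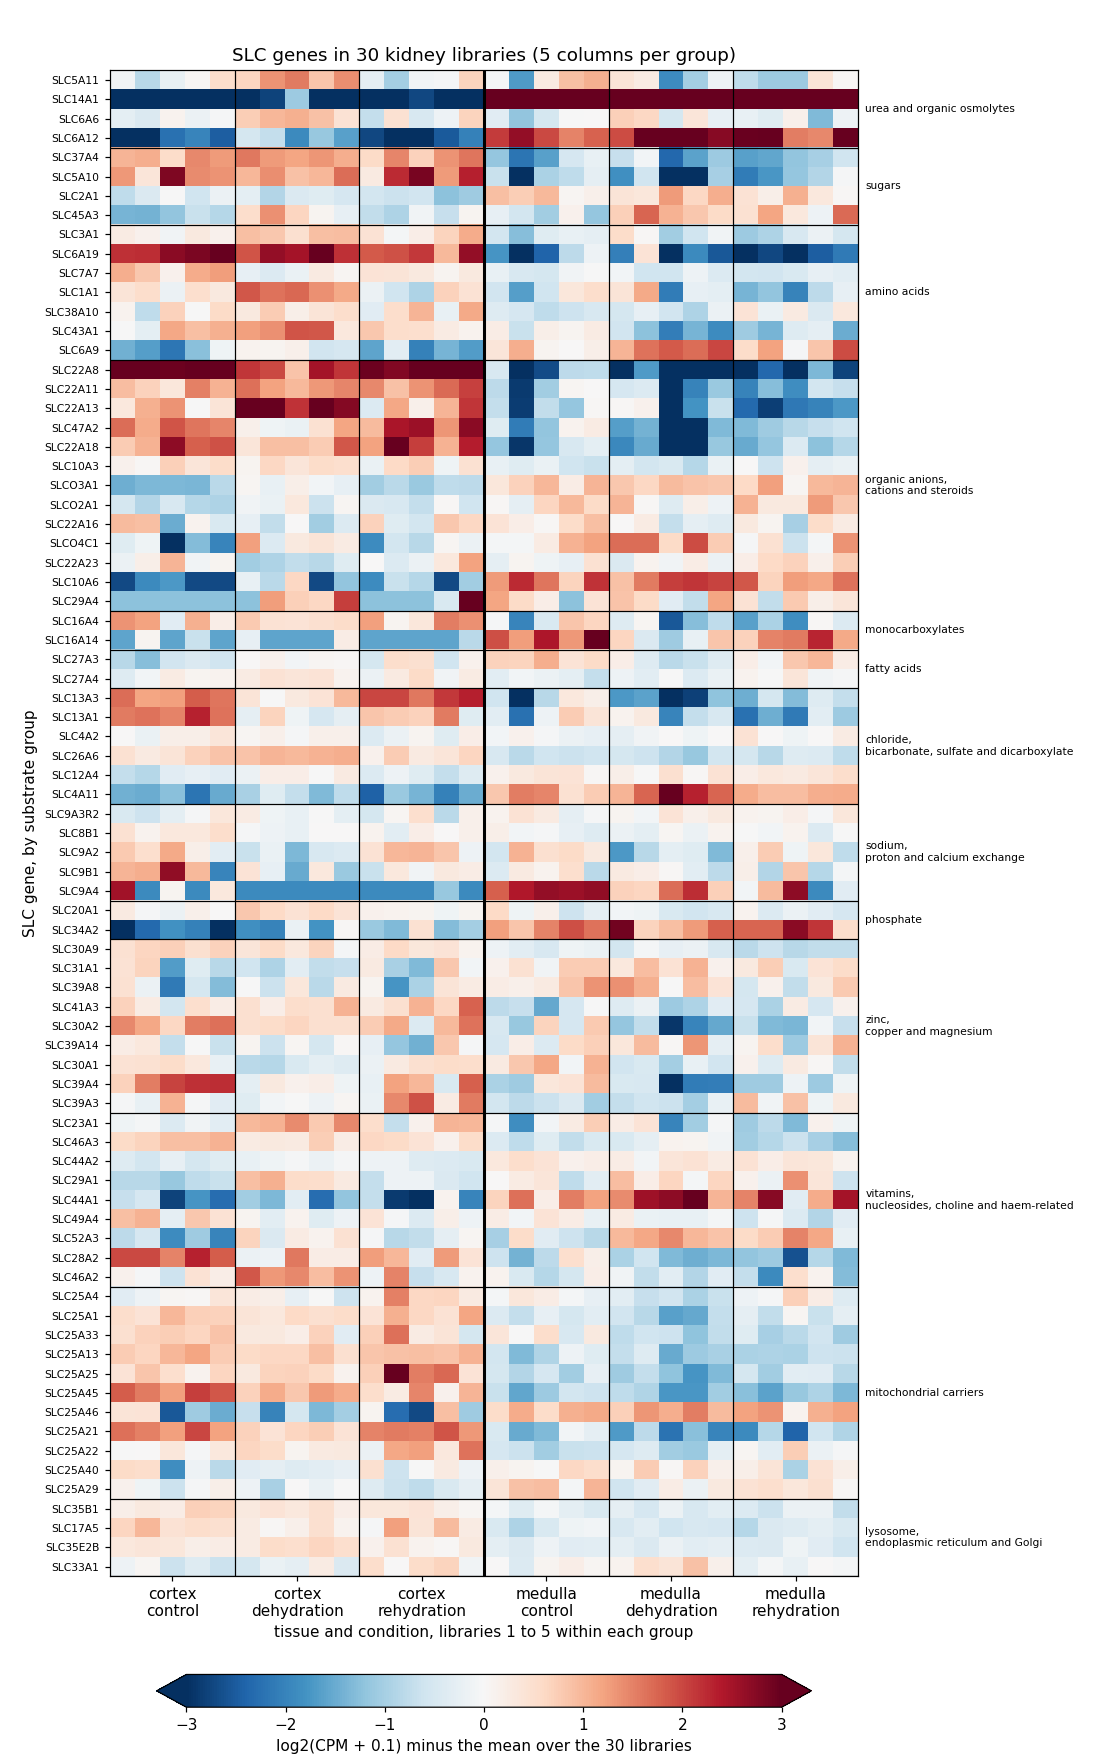
Levels of 78 of the 83 SLC genes (rows, by substrate group) in the 30 libraries (columns, 5 for each tissue and condition), as log2(CPM + 0.1) minus the gene's mean over all libraries, with colours ending at -3 and 3. Most rows change colour at the thick line between cortex and medulla, and medulla control library 2 and medulla dehydration library 3 are dark blue in several rows of the organic anion and cation group.

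Medulla and cortex were compared in the camels of each condition. In control camels 58 of 82 members were called (22 higher and 36 lower in the medulla), or 70.7%, against 60.9% of all tested genes (32.2% higher and 28.6% lower). In dehydrated camels 61 members were called (21 higher and 40 lower), or 74.4%, against 65.4% of all genes (34.4% higher and 31% lower). In rehydrated camels 61 were called (21 higher and 40 lower) against 61.1% of all genes (33% higher and 28.1% lower). More members were thus higher in the cortex than in the medulla, and more of all genes were higher in the medulla. The TMM factors ran from 0.740 to 0.900 in cortex libraries and from 1.05 to 1.31 in medulla libraries. Small differences between the tissues, and the split of higher and lower, therefore depend on this scaling. They were not computed on plain library totals. The share of all genes called between tissues in all 3 conditions was not computed, so the counts that follow are descriptions. Between tissues, 43 members were called in all 3 conditions, 14 of them higher in the medulla, 29 higher in the cortex and 0 with a change of side. Another 31 were called in 1 or 2 conditions, among them SLC33A1 with a side that turned, and 8 were called in none, among them SLC6A6, SLC9A2, SLC39A14, SLC9A3R2, SLC22A16, SLC30A1 and SLC4A2.

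**Figure D2:**
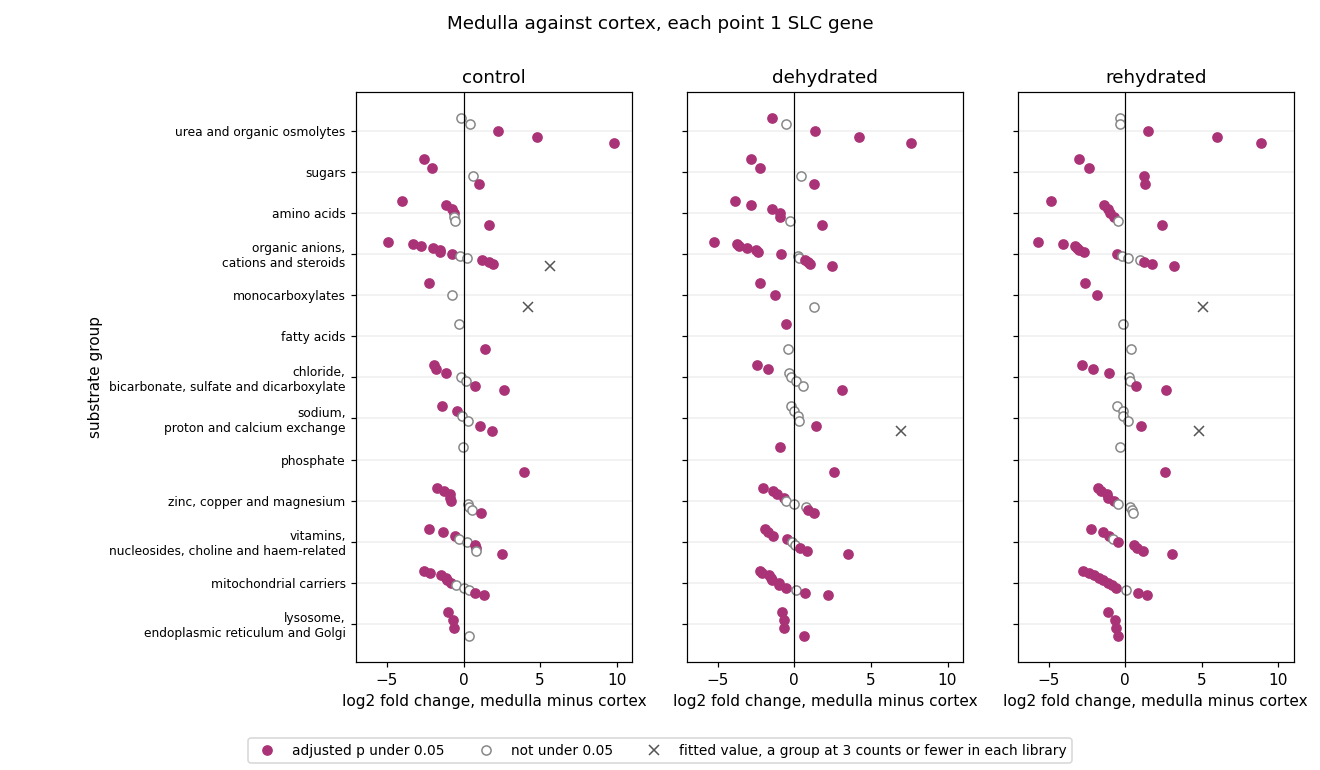
Log2 fold changes of medulla minus cortex (x axis) for the 82 tested SLC genes, by substrate group (y axis), in control, dehydrated and rehydrated camels, filled where the adjusted p was under 0.05. Crosses mark fitted values where no library of 1 of the groups exceeded 3 counts, which are no bounds. The point farthest to the right in each panel is SLC14A1, and the organic anion and cation group holds the points farthest to the left.

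In the cortex, 14 members were called in dehydration against control, 8 higher and 6 lower, against 2.45% of all genes (1.27% higher and 1.17% lower). The 8 were SLC22A13, SLC45A3, SLC29A1, SLC52A3, SLC46A2, SLCO3A1, SLC6A6 and SLC12A4, with log2 fold changes from 0.59 to 2.37, and no dehydrated library overlapped a control library in any of them. The 6 were SLC13A1, SLC39A4, SLC28A2, SLC7A7, SLC30A1 and SLC49A4, which fell by 0.77 to 1.80 on the log2 scale, 3 of them without overlap. The share of all genes without overlap was not computed, so the lack of overlap is a description. All 14 come from the lists drawn from these libraries. With DESeq2's size factors the split was 7 higher and 8 lower. Of the 43 members of the protein lists, 3 were called, SLC12A4 higher and SLC7A7 and SLC13A1 lower, and these 3 stand in both kinds of list. Over the 82 members the median log2 fold change was -0.05, and 0.0033 over all genes.

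In the medulla, 13 members were called in dehydration against control, 4 higher and 9 lower, against 1.68% of all genes (0.527% higher and 1.16% lower). SLC45A3, SLC52A3, SLC6A9 and SLC4A11 were higher, by 1.22 to 1.53 on the log2 scale. The members that were lower, by 0.77 to 2.60, included SLC16A14, SLC30A2, SLC13A3, SLC43A1, SLC9A2, SLC30A1, SLC27A3 and SLC25A29. All 13 again come from the lists drawn from these libraries, and SLC13A3 was the 1 protein-list member among them. The median was -0.07 over the members and 0.0119 over all genes. In both tissues 3 members were called, in the same direction each, namely SLC45A3 and SLC52A3 higher and SLC30A1 lower.

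**Figure D3:**
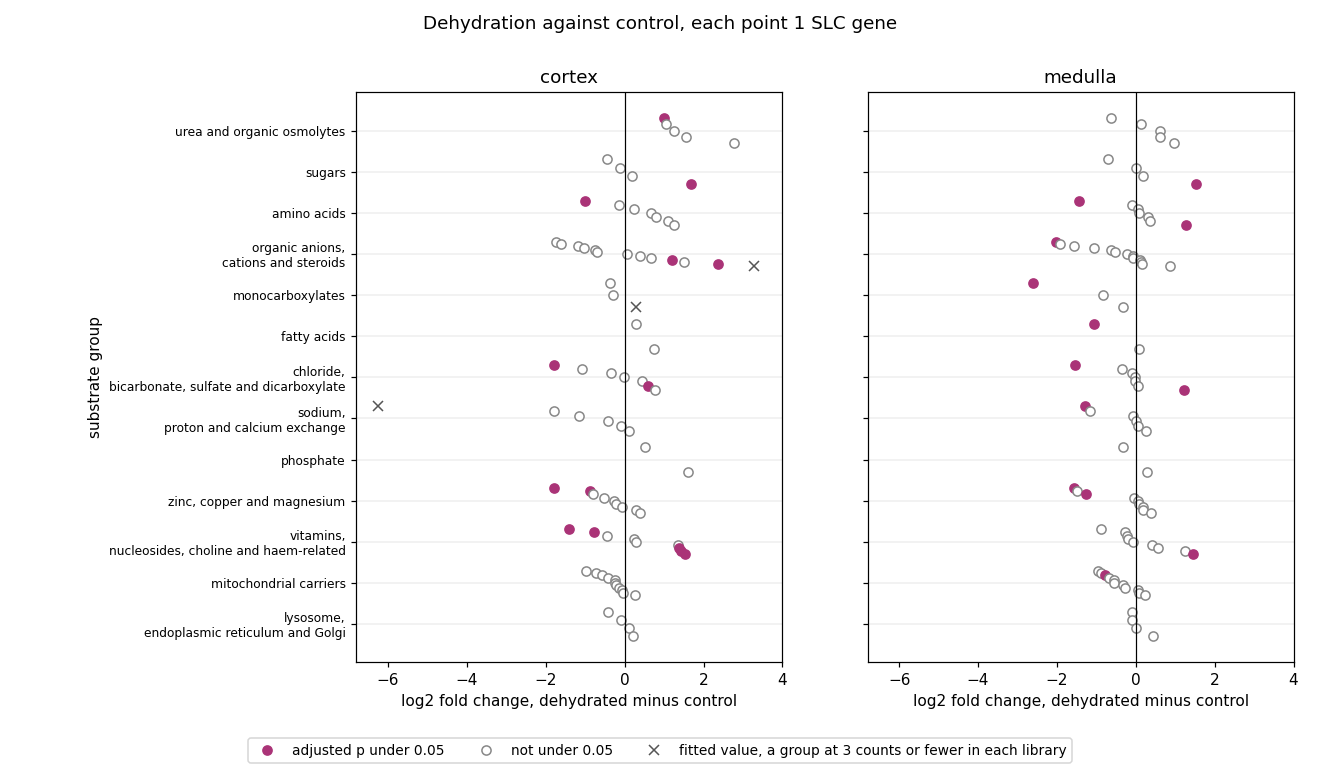
Log2 fold changes of dehydrated minus control (x axis) for the 82 tested SLC genes, by substrate group (y axis), in cortex and medulla, filled where the adjusted p was under 0.05. Crosses mark fitted values where 1 of the groups had no library over 3 counts. All 5 carriers of urea and organic osmolytes lie to the right of 0 in the cortex, and the cross farthest to the left is SLC9A4, which had 0 counts in the dehydrated cortex.

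Rehydration against dehydration gave 14 called members in the cortex, 8 higher and 6 lower, against 2.32% of all genes (1.07% higher and 1.24% lower). Higher were SLC47A2, SLC13A3, SLC25A25, SLC9A2, SLC39A3, SLC22A23, SLC25A21 and SLC30A1, and lower were SLC22A13, SLC1A1, SLC29A1, SLCO3A1, SLC26A6 and SLC12A4. In the medulla 5 members were called, against 3.67% of all genes (2.24% higher and 1.43% lower), among them SLC27A3, which was higher, and SLC4A11, SLC46A3 and SLC30A9, which were lower. Rehydration against control gave 0 called members in the cortex by edgeR against 0.0845% of all genes (0.052% higher and 0.0325% lower), with 19 members at an unadjusted p under 0.05 (8.28% of all genes) and 4 called by DESeq2 (0.748% of the genes it tested). In the medulla it gave 1, SLC45A3, against 0.813% of all genes (0.611% higher and 0.202% lower), with 6 called by DESeq2 (2.22% of the genes it tested). These comparisons share libraries with those of dehydration against control, so a value that is high in dehydrated camels enters both.

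The plot of called members shows 23 of the 24 genes called in dehydration against control in either tissue, and their values follow by substrate group.

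**Figure D4:**
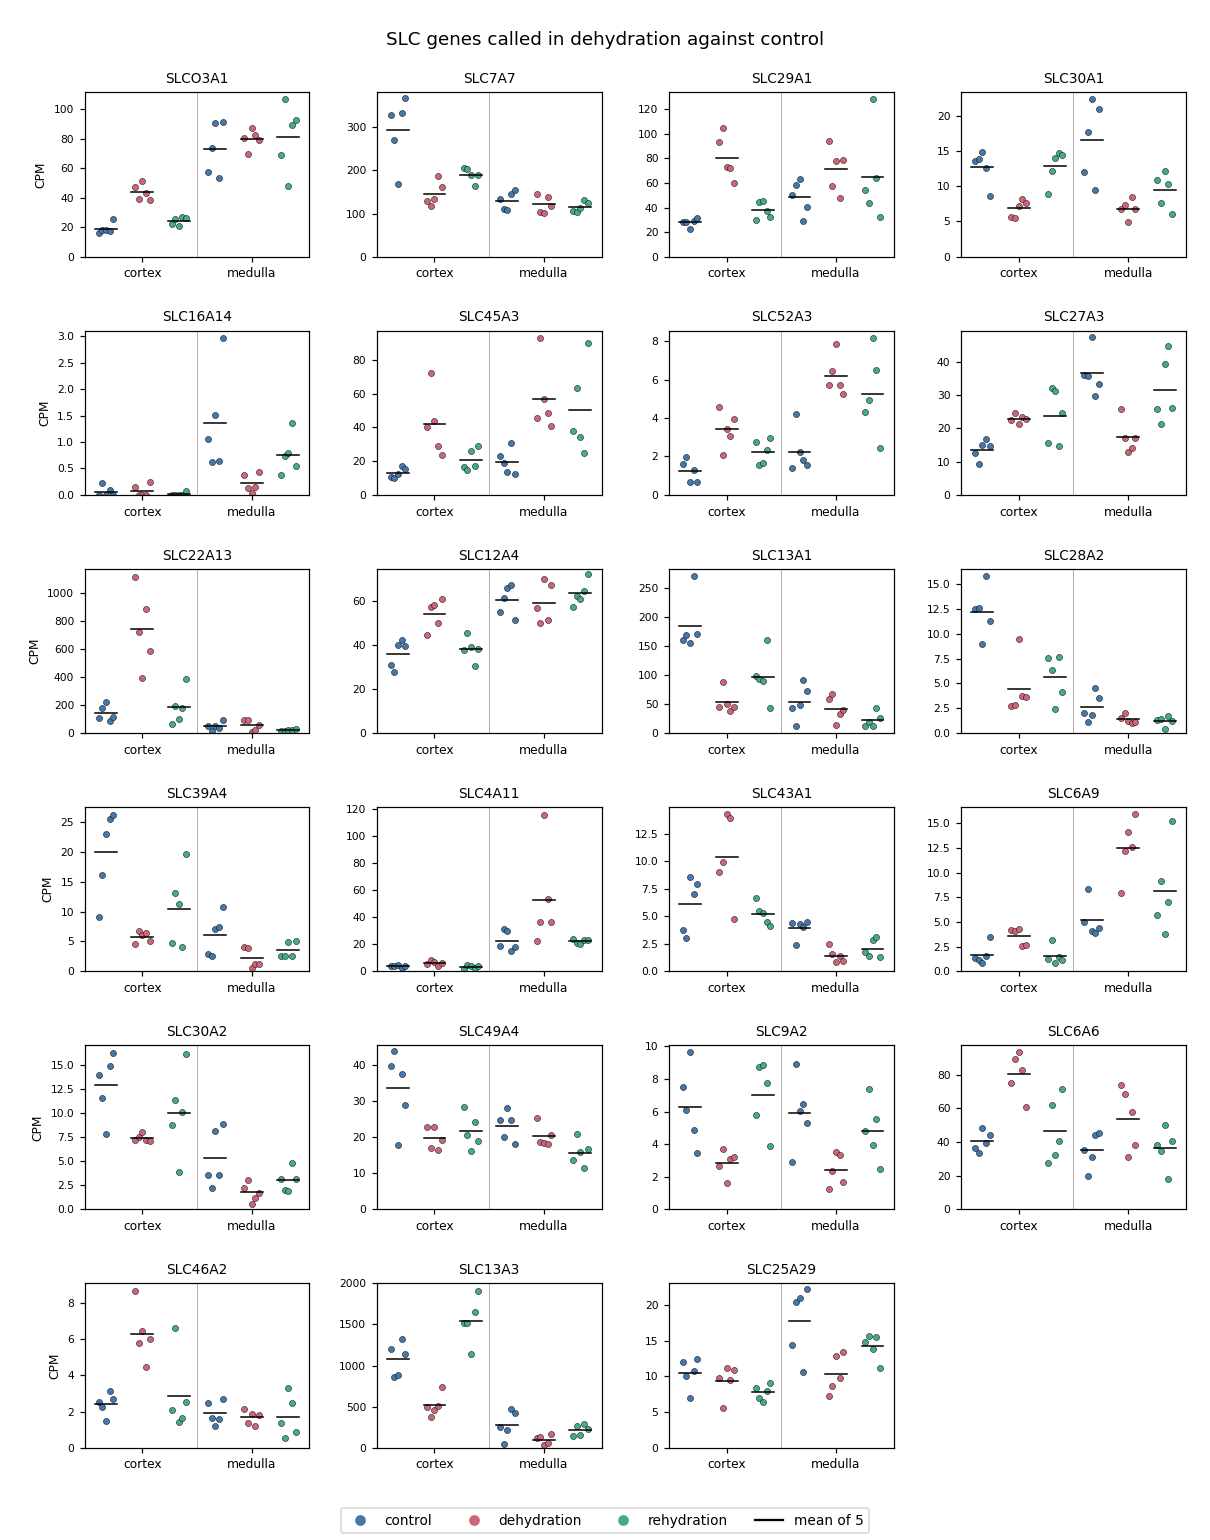
CPM (y axes, from 0) of 23 of the 24 SLC genes called in dehydration against control in either tissue, with 1 point per library, by tissue (x axis) and condition (colour), and black lines at the mean of 5. In the cortex the dehydrated points of SLCO3A1, SLC29A1, SLC22A13, SLC45A3 and SLC6A6 lie above every control point, and those of SLC13A1, SLC39A4 and SLC30A1 lie below.

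The group of urea and organic osmolyte carriers holds 5 members, of which 4 are described. SLC14A1 (ENSCDRG00005015615, chr30:22599892-22621398) is a urea transporter. Its counts in the cortex were 8, 1, 0, 3 and 0 in control, 8, 14, 76, 0 and 8 in dehydrated and 0, 5, 15, 8 and 2 in rehydrated camels. In the medulla its level was 235, 255, 202, 125 and 135 in control, 177, 258, 447, 408 and 177 in dehydrated and 297, 125, 273, 147 and 266 CPM in rehydrated camels. It showed the widest gap between tissues of any member, with no overlap in any condition (log2 fold change 9.80, SE 0.65, adjusted p = 4.55e-13 in controls, 7.64 in dehydrated and 8.89 in rehydrated camels). Between conditions it was not called in the medulla (log2 fold change 0.62, SE 0.36, adjusted p = 0.472), and in the cortex, where most counts of dehydrated camels came from library 3, it was not called either (log2 fold change 2.78, SE 0.94, adjusted p = 0.119).

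SLC5A11, a sodium-coupled myo-inositol transporter, had the highest level of the group per kb (80.4 CPM per kb over all libraries). It stood at 137, 82.8, 127, 152 and 214 in control, 229.7, 378, 438, 265 and 389 in dehydrated and 123, 72.5, 140.1, 145 and 234 CPM in rehydrated camels in the cortex. The medulla gave 143, 45.3, 177, 278 and 308 in control, 192, 176, 39.7, 72.8 and 132 in dehydrated and 86.9, 69.7, 69.5, 194 and 151 CPM in rehydrated camels. All 5 dehydrated cortex libraries were above the control libraries, but the test did not pass (log2 fold change 1.25, SE 0.42, adjusted p = 0.115), and the medulla values overlapped (-0.63, SE 0.41, adjusted p = 0.549). Medulla control library 2 and medulla dehydration library 3 were again the lowest of their groups.

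SLC6A6, the taurine transporter (ENSCDRG00005004206, chr17:47957329-48033015), stood at 36.7, 33.4, 48.2, 39.7 and 43.97 in control, 75.2, 89.1, 93.8, 83.0 and 61.0 in dehydrated and 27.4, 62.0, 32.1, 40.7 and 71.3 CPM in rehydrated camels in the cortex. Dehydrated libraries lay above every control library (log2 fold change 0.99, SE 0.27, adjusted p = 0.0441, up to 0.111 without cortex dehydration 3), and rehydrated libraries overlapped both other groups. The medulla gave 35.5, 19.7, 31, 44.2 and 45.4 in control, 74.0, 68.7, 31.2, 57.6 and 38.1 in dehydrated and 38.3, 34.7, 50.3, 18.0 and 40.4 CPM in rehydrated camels, with overlap (0.62, SE 0.27, adjusted p = 0.294). It was not called between the tissues in any condition.

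SLC6A12, a transporter of betaine, gave 0.291 to 0.959 CPM in control, 1.02 to 2.82 CPM in dehydrated and 0 to 0.932 CPM in rehydrated cortex, where its highest count was 37 in any library. In the medulla it gave 11.6 to 25.9 CPM, 16.3 to 52.5 CPM and 11.3 to 47.7 CPM in the same order. It was higher in the medulla in each condition (log2 fold change 4.81, SE 0.53, adjusted p = 1.96e-08 in controls), and not called in dehydration against control in cortex (1.57, SE 0.67, adjusted p = 0.249) or medulla (0.96, SE 0.34, adjusted p = 0.166).

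Over the group, all 5 carriers had positive log2 fold changes in the dehydrated cortex (median 1.25, against 0.0033 over all genes), all 5 at an unadjusted p under 0.05 (14.7% of all genes) and 1 called. In rehydration against dehydration of the cortex all 5 were negative (median -1.29, against 0.03 over all genes), with 0 called. In the medulla 4 of 5 were positive in dehydration against control (median 0.62), with 0 called. SLC5A11 was listed for its protein and the others for RNA differences in these same libraries, so for them these counts support nothing. Of the markers, PVALB, AQP3 and PECAM1 were called higher in the dehydrated cortex too. UMOD, AQP2 and VWF, the other endothelial marker (0.30, adjusted p = 0.614), were not, and the part of the markers was not tested.

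**Figure D5:**
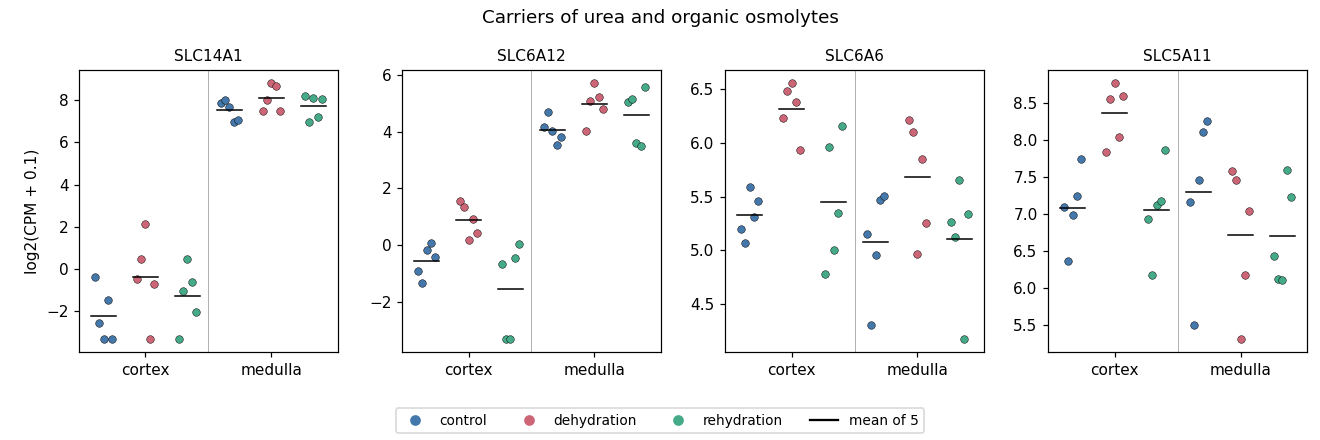
Levels of 4 carriers of urea and organic osmolytes as log2(CPM + 0.1) (y axes, 1 point per library) by tissue (x axis) and condition (colour), with black lines at the mean of 5 on that scale. In the cortex the dehydrated mean is the highest of the 3 for each carrier, and SLC14A1 and SLC6A12 are far higher in the medulla.

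Organic anions, cations and steroids are carried by 14 members, of which 13 were tested. SLC22A13 (ENSCDRG00005017926, chr17:8231217-8242285), an exchanger of nicotinate and urate, showed the largest called rise in the dehydrated cortex. Its cortex levels were 109, 182, 223, 87.2 and 114 in control, 1116, 717, 392, 885 and 586 in dehydrated and 65.6, 196, 97.3, 176 and 388 CPM in rehydrated camels. Every dehydrated library exceeded every control library and every rehydrated library (log2 fold change 2.37, SE 0.51, adjusted p = 0.00997, up to 0.0373 with 1 library left out), and the fall with rehydration was called too (log2 fold change -2.0, SE 0.51, adjusted p = 0.0288, up to 0.0803 without cortex rehydration 3). The medulla gave 52.9, 12.1, 51.9, 38.7 and 89.7 in control, 89.8, 95.5, 8.197, 25.0 and 54.7 in dehydrated and 17.3, 12.3, 19.7, 21.6 and 26.2 CPM in rehydrated camels, and the groups overlapped (0.16, SE 0.49, adjusted p = 0.934).

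SLCO3A1 (ENSCDRG00005020198, chr27:12797033-13101249), an organic anion transporter, had the smallest adjusted p of the members in dehydration against control. It stood at 16.3, 17.8, 17.7, 17.4 and 25.8 in control, 47.5, 39.2, 51.4, 43.1 and 38.1 in dehydrated and 22.0, 25.7, 20.9, 26.6 and 26.2 CPM in rehydrated camels in the cortex. Dehydrated libraries lay above all others of the cortex (log2 fold change 1.21, SE 0.18, adjusted p = 0.000531, up to 0.0029 with 1 library left out), and levels fell with rehydration (log2 fold change -0.85, SE 0.18, adjusted p = 0.00967, up to 0.0353 with 1 library left out). The medulla gave 57.4, 73.8, 90.3, 53.2 and 91.5 in control, 80.2, 69.8, 87.4, 82.2 and 79.3 in dehydrated and 68.9, 107, 47.7, 89.4 and 92.4 CPM in rehydrated camels, higher than in the cortex in every condition (1.95 in controls, 0.86 in dehydrated camels) and with overlap between conditions (0.12, SE 0.17, adjusted p = 0.814).

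SLC10A6, a carrier of steroid sulfates, was near the limit of counting in the cortex. Its counts were 0, 1, 1, 0 and 0 in control, 6, 3, 16, 0 and 3 in dehydrated and 1, 4, 3, 0 and 3 in rehydrated cortex, and no fold change is given against the control cortex. Medulla levels were 1.48, 2.96, 1.89, 0.937 and 2.84 in control, 1.10, 1.83, 2.65, 2.79 and 2.58 in dehydrated and 2.26, 0.937, 1.45, 1.35 and 1.91 CPM in rehydrated camels. All medulla libraries of controls lay above the control cortex. SLC29A4, a monoamine transporter, had at most 27 counts in any library and was not tested.

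SLC22A8, which takes up organic anions, had the largest gap of any tested member toward the cortex (665 to 1404 CPM in control cortex and 2.30 to 62.0 CPM in control medulla, log2 fold change -4.91, SE 0.68, adjusted p = 1.04e-06). It was not called in dehydration against control in cortex (-1.61, SE 0.59, adjusted p = 0.157) or medulla (-1.92, SE 0.62, adjusted p = 0.124). SLC47A2, which exports organic cations into urine, was called higher in rehydrated (94.2 to 316 CPM) than in dehydrated cortex (42.1 to 110.2 CPM), with overlap (log2 fold change 1.77, SE 0.42, adjusted p = 0.021, up to 0.0642 without cortex dehydration 2). SLC22A23, a carrier without a settled substrate, was likewise called higher in rehydrated (2.65 to 8.39 CPM) than in dehydrated cortex (1.68 to 2.77 CPM), with overlap (log2 fold change 1.10, SE 0.30, adjusted p = 0.0458, up to 0.17 without cortex rehydration 5). SLC22A11, SLC22A18, SLC10A3, SLCO2A1, SLC22A16 and SLCO4C1 were called in no comparison of conditions, with log2 fold changes in the dehydrated cortex from -0.75 (SLC22A18) to 1.49 (SLCO4C1). Of the 13, 7 were called higher in the cortex in each condition, and SLC10A6, SLCO2A1, SLCO3A1 and SLCO4C1 were called higher in the medulla of controls.

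Sugars are carried by 4 members. SLC37A4, which moves glucose-6-phosphate into the endoplasmic reticulum, had the highest level of them per kb. It stood at 415, 433, 299.6, 558 and 498 in control, 608, 493, 461, 511 and 434 in dehydrated and 304, 561, 329.9, 519 and 620.4 CPM in rehydrated camels in the cortex. The medulla gave 91.9, 44.9, 66.3, 145 and 175 in control, 127, 192, 40.1, 66.8 and 95.8 in dehydrated and 65.7, 68.9, 89.9, 102 and 136 CPM in rehydrated camels. The tissues did not overlap in any condition (log2 fold change -2.08, SE 0.34, adjusted p = 1.06e-05 in controls), and dehydration left it uncalled in cortex (0.19, SE 0.33, adjusted p = 0.876) and medulla (adjusted p = 0.996).

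SLC5A10, a sodium-coupled sugar transporter, showed the largest gap between tissues of the 4. Its cortex levels were 137, 71.0, 389.5, 148 and 143 in control, 111, 147, 102, 110.3 and 177 in dehydrated and 67.3, 262, 400.4, 136 and 281 CPM in rehydrated camels. Its medulla levels were 34.9, 5.76, 28.8, 32.8 and 45.8 in control, 15.4, 36.9, 4.48, 5.70 and 27.7 in dehydrated and 12.9, 16.4, 25.0, 30.1 and 54.5 CPM in rehydrated camels. Cortex control library 3 and cortex rehydration library 3 were the highest of their groups. No library of the medulla reached the cortex (log2 fold change -2.59, SE 0.56, adjusted p = 0.000283 in controls), and no comparison of conditions was called. SLC2A1, the glucose transporter of many cell types, was higher in the medulla in each condition (log2 fold change 0.99, SE 0.22, adjusted p = 0.000345 in controls).

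SLC45A3 (ENSCDRG00005012019, chr23:31685412-31702950), of a family of proton-linked sugar transporters, was called higher in dehydrated camels in both tissues. The cortex gave 10.5, 10.3, 12.2, 17.4 and 15.3 in control, 40.3, 72.5, 43.7, 29.2 and 23.5 in dehydrated and 16.6, 14.6, 25.9, 17.1 and 29.2 CPM in rehydrated camels. The medulla gave 23.3, 18.9, 13.5, 30.5 and 12.3 in control, 45.3, 93.3, 57.0, 48.6 and 41.1 in dehydrated and 38.0, 63.4, 34.5, 25.1 and 89.8 CPM in rehydrated camels. Dehydrated and control libraries did not overlap in cortex (log2 fold change 1.67, SE 0.34, adjusted p = 0.00612, up to 0.0289 with 1 library left out) or medulla (log2 fold change 1.53, SE 0.33, adjusted p = 0.00996, up to 0.0464 with 1 library left out). It was also the 1 member called in rehydration against control, in the medulla, where values overlapped (log2 fold change 1.35, SE 0.33, adjusted p = 0.0447, up to 0.169 without medulla rehydration 5).

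Amino acids are carried by 7 members. SLC3A1, the heavy subunit of the cystine and dibasic amino acid transporter of the proximal tubule, had the highest level per kb of the group. Its cortex levels were 346, 319, 267, 355 and 315 in control, 540.3, 505, 403, 538 and 548 in dehydrated and 393, 280, 331, 457 and 630.2 CPM in rehydrated camels. The medulla gave 198, 119.8, 226, 249.7 and 241 in control, 423, 297, 141, 191 and 268 in dehydrated and 136, 151, 208, 255 and 200.4 CPM in rehydrated camels. It was lower in the medulla in each condition (log2 fold change -0.63, SE 0.24, adjusted p = 0.0236 in controls) and not called between conditions (0.66 in cortex and 0.35 in medulla with dehydration).

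SLC6A19, which reclaims neutral amino acids, showed the largest gap of the group. It stood at 399.9, 404, 571, 622 and 889.7 in control, 324, 544, 497, 874 and 398 in dehydrated and 315, 331, 379.8, 172 and 547 CPM in rehydrated camels in the cortex. The medulla gave 25.7, 2.55, 16.5, 51.0 and 78.5 in control, 21.1, 116, 4.91, 23.1 and 14.9 in dehydrated and 7.84, 13.0, 4.72, 15.7 and 20.2 CPM in rehydrated camels. Cortex exceeded medulla in each condition (log2 fold change -4.05, SE 0.68, adjusted p = 1.37e-05 in controls), medulla dehydration library 2 stood far above the other 4 of its group, and no comparison of conditions was called.

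SLC7A7 (ENSCDRG00005007288, chr6:32734619-32761106), the light subunit of a basolateral exporter of cationic amino acids, fell in the dehydrated cortex. It stood at 329, 269.8, 169, 333 and 367 in control, 129.9, 117, 135, 186 and 162 in dehydrated and 206, 203, 188, 164 and 189.7 CPM in rehydrated camels. Control library 3 lay within the dehydrated range and the other 4 control libraries above it (log2 fold change -1.01, SE 0.16, adjusted p = 0.00115, up to 0.00502 with 1 library left out). The medulla gave 133, 110.1, 108, 144 and 154 in control, 146, 102, 102, 139 and 117 in dehydrated and 105, 104, 112, 130.4 and 123 CPM in rehydrated camels, with overlap (-0.10, SE 0.16, adjusted p = 0.847).

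SLC6A9, a glycine transporter, was called higher in the dehydrated medulla. It stood at 5.02, 8.39, 4.12, 3.90 and 4.42 in control, 7.95, 12.2, 14.1, 12.57 and 15.9 in dehydrated and 5.71, 9.14, 3.81, 6.98 and 15.2 CPM in rehydrated camels there. Only control library 2 reached into the range of the dehydrated libraries (log2 fold change 1.27, SE 0.31, adjusted p = 0.0272, up to 0.0994 without medulla control 3). The cortex gave 1.36, 1.16, 0.788, 1.57 and 3.52 in control, 4.20, 4.09, 4.31, 2.57 and 2.71 in dehydrated and 1.22, 3.12, 0.876, 1.41 and 1.15 CPM in rehydrated camels, a difference that was not called (1.10, SE 0.43, adjusted p = 0.192). Medulla exceeded cortex in each condition (1.64 in controls).

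SLC43A1, a carrier of neutral amino acids, was called lower in the dehydrated medulla. There it stood at 4.40, 2.34, 4.29, 4.00 and 4.47 in control, 2.48, 1.55, 0.811, 1.38 and 0.944 in dehydrated and 1.75, 1.37, 2.84, 3.08 and 1.27 CPM in rehydrated camels. Dehydrated library 1 overlapped control library 2 (log2 fold change -1.44, SE 0.35, adjusted p = 0.0272, up to 0.0964 without medulla dehydration 3), and the call was lost without the 2 medulla libraries low in GATM (log2 fold change -1.44, adjusted p = 0.0597). The cortex gave 3.74, 3.06, 8.57, 7.06 and 7.98 in control, 9.00, 9.91, 14.3, 14.0 and 4.72 in dehydrated and 6.65, 5.46, 5.34, 4.50 and 4.09 CPM in rehydrated camels, where the fitted change had the opposite sign and was not called (0.79, SE 0.31, adjusted p = 0.207), and the difference between the tissues in the response was not called either (-2.23, SE 0.47, adjusted p = 0.0583).

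SLC1A1, a glutamate transporter, gave 45.6 to 74.3 CPM in control, 113 to 186 CPM in dehydrated and 27.0 to 83.3 CPM in rehydrated cortex. Dehydrated libraries lay above those of both other groups, and rehydration against dehydration was called (log2 fold change -1.55, SE 0.41, adjusted p = 0.0408, up to 0.106 without cortex rehydration 3), while dehydration against control was not (1.24, SE 0.41, adjusted p = 0.114). SLC38A10 was called in no comparison of conditions.

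Of the 3 carriers of the monocarboxylate family, SLC16A4 had the highest level per kb. It stood at 412, 373, 128, 339 and 186 in control, 281, 220, 214, 226 and 236 in dehydrated and 379.5, 172, 205, 472 and 416 CPM in rehydrated camels in the cortex. The medulla gave 158, 40.6, 118, 287 and 251 in control, 124, 167, 27.4, 66.2 and 95.9 in dehydrated and 52.6, 84.2, 44.7, 167 and 121 CPM in rehydrated camels. It was called lower in the medulla of dehydrated and rehydrated camels (-1.29 and -1.81) and not of controls (-0.75, SE 0.44, adjusted p = 0.139).

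SLC16A14 is a member of the same family with few counts. In the medulla they were 22, 15, 27, 13 and 71 in control, 8, 3, 1, 4 and 10 in dehydrated and 9, 19, 13, 25 and 14 in rehydrated camels, or 1.05, 0.617, 1.503, 0.641 and 2.96 in control, 0.368, 0.122, 0.0427, 0.157 and 0.429 in dehydrated and 0.384, 0.742, 0.787, 1.35 and 0.556 CPM in rehydrated camels. No dehydrated library overlapped a control library (log2 fold change -2.60, SE 0.52, adjusted p = 0.00454, up to 0.0444 with 1 library left out). Cortex counts were 0, 3, 0, 1 and 0 in control, 2, 0, 0, 0 and 4 in dehydrated and 0, 0, 0, 0 and 1 in rehydrated camels, too few for a fold change.

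Both members that take up fatty acids were tested. SLC27A3 (ENSCDRG00005017215, chr21:7068206-7072807) had the higher level per kb of the pair and the 1 call in the test of the dehydration response between tissues, against 0.0455% of all genes (0.0065% higher and 0.039% lower). The cortex gave 12.59, 9.17, 15.0, 16.6 and 14.7 in control, 22.4, 24.5, 21.2, 23.5 and 22.8 in dehydrated and 15.5, 32.2, 31.1, 14.8 and 24.7 CPM in rehydrated camels. The medulla gave 35.99, 35.7, 47.5, 29.84 and 33.5 in control, 25.8, 17.2, 12.8, 13.9 and 17.0 in dehydrated and 25.9, 21.3, 39.2, 44.8 and 26.1 CPM in rehydrated camels. With dehydration the cortex libraries all lay above the controls (log2 fold change 0.75, SE 0.24, adjusted p = 0.0897) and the medulla libraries all below (log2 fold change -1.07, SE 0.23, adjusted p = 0.00926, up to 0.0421 with 1 library left out), and the responses differed by -1.82 (SE 0.33, adjusted p = 0.0182). With the camel as a block, as both tissues came from the same camels, 0 members were called in this test, and without both medulla libraries low in GATM the difference was -1.74 (adjusted p = 0.0576). The medulla was higher than the cortex in controls (1.43, SE 0.23, adjusted p = 1.12e-05) and was not called in dehydrated camels (-0.40, SE 0.23, adjusted p = 0.125). Rehydrated medulla was above dehydrated medulla, with overlap (log2 fold change 0.86, SE 0.23, adjusted p = 0.0312, up to 0.0909 without medulla dehydration 3). SLC27A4 was called in no comparison of conditions.

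Chloride, bicarbonate, sulfate and dicarboxylates are carried by 7 members. SLC13A3, which takes up succinate and related dicarboxylates, had the highest level per kb. It stood at 1206, 858, 880.4, 1322 and 1144 in control, 495, 377, 464, 504 and 738 in dehydrated and 1515, 1515, 1137, 1646 and 1907 CPM in rehydrated camels in the cortex. The medulla gave 249, 42.3, 212, 473 and 425 in control, 114, 124, 26.8, 54.0 and 163 in dehydrated and 138, 262, 154, 287 and 231 CPM in rehydrated camels. In the cortex the dehydrated libraries lay below all others, and the rise with rehydration was called (log2 fold change 1.58, SE 0.41, adjusted p = 0.0335, up to 0.0997 without cortex dehydration 2), but not the difference of dehydrated from control camels (-1.07, SE 0.41, adjusted p = 0.179). In the medulla, with overlap, the fall with dehydration was called (log2 fold change -1.54, SE 0.41, adjusted p = 0.0491, up to 0.162 without medulla dehydration 4).

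SLC13A1 (ENSCDRG00005004922, chr7:60792548-60866621), a sulfate transporter of the proximal tubule, fell in the dehydrated cortex. Its cortex levels were 161, 169.8, 155, 271 and 170.3 in control, 45.2, 87.7, 49.7, 38.9 and 45.5 in dehydrated and 97.8, 92.8, 89.3, 161 and 42.5 CPM in rehydrated camels. Dehydrated libraries lay below every control library (log2 fold change -1.80, SE 0.43, adjusted p = 0.0193, up to 0.0618 without cortex control 4), and rehydrated libraries overlapped both groups. Medulla levels were 44.02, 11.6, 49.1, 92.3 and 71.8 in control, 58.6, 66.7, 13.8, 33.5 and 39.0 in dehydrated and 11.6, 19.8, 12.5, 43.8 and 25.6 CPM in rehydrated camels, with overlap (-0.34, SE 0.42, adjusted p = 0.78).

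SLC12A4, a potassium-chloride cotransporter, rose in the dehydrated cortex. It stood at 30.7, 27.8, 39.8, 42.4 and 39.3 in control, 44.3, 57.3, 58.1, 49.8 and 60.9 in dehydrated and 37.8, 45.3, 39.2, 30.4 and 38.1 CPM in rehydrated camels there. Dehydrated libraries lay above every control library (log2 fold change 0.59, SE 0.14, adjusted p = 0.0162, up to 0.0574 without cortex control 2), and levels fell with rehydration, where library 2 overlapped (log2 fold change -0.50, SE 0.14, adjusted p = 0.0421, up to 0.105 without cortex dehydration 5). The medulla gave 55.0, 61.4, 65.9, 67.2 and 51.4 in control, 56.6, 50.1, 69.7, 51.1 and 67.3 in dehydrated and 57.4, 62.3, 60.9, 64.2 and 72.3 CPM in rehydrated camels, with overlap (-0.03, SE 0.13, adjusted p = 0.956).

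SLC4A11, of the bicarbonate transporter family, had the largest gap between tissues in this group (log2 fold change 2.64, SE 0.35, adjusted p = 5.51e-07 in controls). It stood at 3.91, 3.78, 4.43, 2.27 and 3.71 in control, 5.42, 8.37, 6.46, 4.20 and 6.23 in dehydrated and 1.91, 4.92, 4.03, 2.53 and 3.73 CPM in rehydrated camels in the cortex. The medulla gave 18.9, 31.4, 29.83, 14.7 and 18.1 in control, 22.0, 35.98, 116, 53.4 and 36.2 in dehydrated and 23.4, 20.5, 20.4, 23.1 and 23.3 CPM in rehydrated camels. It was called higher in the dehydrated medulla, with overlap (log2 fold change 1.22, SE 0.29, adjusted p = 0.0261, up to 0.172 without medulla dehydration 3), and lower again in the rehydrated medulla (log2 fold change -1.25, SE 0.29, adjusted p = 0.0173, up to 0.0957 without medulla dehydration 3). Dehydrated library 3 held the highest level of the medulla, and without it the change with dehydration was 0.71 (adjusted p = 0.172) and that with rehydration -0.74 (adjusted p = 0.0957).

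SLC26A6, an anion exchanger, gave 106 to 126 CPM in dehydrated and 64.5 to 99.6 CPM in rehydrated cortex, without overlap (log2 fold change -0.54, SE 0.14, adjusted p = 0.0291, up to 0.0789 without cortex rehydration 3), and was not called against controls (0.44, SE 0.14, adjusted p = 0.0827). SLC4A2 was called in no comparison of conditions.

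Sodium, proton and calcium exchange holds 6 members. SLC9A3R2, the scaffold protein, had the highest level per kb. It stood at 94.4, 85.1, 107, 128 and 164 in control, 155, 119.5, 112, 128 and 107 in dehydrated and 90.3, 137, 185, 74.8 and 146 CPM in rehydrated camels in the cortex. The medulla gave 141, 176, 158, 109 and 128 in control, 139, 124, 173, 144 and 159 in dehydrated and 140.1, 139, 149, 127 and 165 CPM in rehydrated camels. No test of it passed, and its log2 fold changes between conditions and between tissues ran from -0.04 in rehydration against dehydration of the medulla to 0.30 in medulla against cortex of controls.

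SLC9A2, a sodium/proton exchanger of the plasma membrane, was called lower in the dehydrated medulla. There it stood at 2.92, 8.93, 6.01, 6.46 and 5.30 in control, 1.24, 2.36, 3.50, 3.34 and 1.67 in dehydrated and 4.82, 7.38, 3.93, 5.52 and 2.50 CPM in rehydrated camels. Control library 1 fell within the dehydrated range (log2 fold change -1.28, SE 0.33, adjusted p = 0.0391, up to 0.11 without medulla control 2). The cortex gave 7.48, 6.11, 9.66, 4.88 and 3.43 in control, 2.67, 3.73, 1.65, 3.08 and 3.21 in dehydrated and 5.81, 8.74, 8.85, 7.74 and 3.87 CPM in rehydrated camels, where the rise with rehydration was called, without overlap (log2 fold change 1.30, SE 0.35, adjusted p = 0.0444, up to 0.141 without cortex dehydration 3), and the difference of dehydrated from control camels was not (-1.16, SE 0.36, adjusted p = 0.0856). SLC9A4, another exchanger, lies 42368 bases from SLC9A2 on chromosome 28 and on the same strand. Its counts in the cortex were 24, 0, 3, 0 and 4 in control, 0 in each dehydrated and 0, 0, 0, 1 and 0 in rehydrated camels. In the medulla they were 25, 46, 40, 43 and 55 in control, 11, 12, 26, 42 and 12 in dehydrated and 6, 16, 38, 0 and 5 in rehydrated camels, or 1.20, 1.89, 2.23, 2.12 and 2.30 in control, 0.505, 0.489, 1.11, 1.65 and 0.515 in dehydrated and 0.256, 0.6249, 2.30, 0 and 0.198 CPM in rehydrated camels. A count of 0 allows up to 3 counts in a library, and no fold change is given for the dehydrated cortex. SLC8B1 and SLC9B1 were called in no comparison of conditions.

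Phosphate is carried by 2 members. SLC20A1, found in most cell types, had the higher level per kb. It stood at 166, 136, 122, 154 and 139 in control, 242, 208, 188, 209 and 185 in dehydrated and 152, 148, 146, 127 and 147 CPM in rehydrated camels in the cortex. The medulla gave 209, 128, 153, 90.0 and 115 in control, 130.5, 126, 102, 92.7 and 98.5 in dehydrated and 149, 105, 122, 109.5 and 97.5 CPM in rehydrated camels. Dehydrated cortex lay above control cortex in every library, a difference that was not called (0.52, SE 0.16, adjusted p = 0.0813), and medulla was lower than cortex in dehydrated camels (-0.91, SE 0.16, adjusted p = 2.41e-05).

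SLC34A2, a sodium-phosphate cotransporter, was higher in the medulla in each condition (log2 fold change 3.94, SE 0.53, adjusted p = 7.39e-07 in controls). It stood at 6.29, 10.0, 14.5, 12.55 and 2.60 in control, 14.3, 12.7, 44.8, 14.8 and 52.7 in dehydrated and 23.5, 20.5, 70.3, 20.6 and 25.4 CPM in rehydrated camels in the cortex. The medulla gave 119.5, 91.1, 143, 196 and 157 in control, 384, 81.8, 96.5, 124 and 178 in dehydrated and 172, 173, 334, 226 and 73.7 CPM in rehydrated camels. Rehydrated cortex libraries all lay above the control libraries, but neither dehydration (1.61, SE 0.51, adjusted p = 0.0906) nor rehydration (1.80, SE 0.51, adjusted p = 0.194) was called against controls. The study's own lists held SLC34A2 for both of these comparisons in the cortex.

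Zinc, copper and magnesium are carried by 9 members. SLC30A1 (ENSCDRG00005018912, chr23:26829222-26833422), which exports zinc across the plasma membrane, fell in both tissues with dehydration. The cortex gave 13.5, 13.9, 14.9, 12.55 and 8.63 in control, 5.65, 5.55, 7.26, 8.13 and 7.68 in dehydrated and 8.87, 12.1, 14.0, 14.8 and 14.4 CPM in rehydrated camels. The medulla gave 12.1, 17.7, 22.4, 9.52 and 20.9 in control, 6.71, 7.29, 4.87, 8.53 and 6.74 in dehydrated and 10.9, 7.62, 12.1, 10.3 and 5.99 CPM in rehydrated camels. Dehydrated libraries lay below every control library in cortex (log2 fold change -0.89, SE 0.24, adjusted p = 0.0418, up to 0.111 without cortex dehydration 2) and in medulla (log2 fold change -1.27, SE 0.23, adjusted p = 0.00231, up to 0.0105 with 1 library left out). The rise with rehydration was called in the cortex (log2 fold change 0.90, SE 0.24, adjusted p = 0.0387, up to 0.106 without cortex dehydration 2) and not in the medulla (0.45, SE 0.23, adjusted p = 0.272).

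SLC39A4 (ENSCDRG00005017888, chr25:40348618-40353309), which imports zinc, had the largest gap between tissues in this group (log2 fold change -1.71, SE 0.43, adjusted p = 0.00139 in controls). It stood at 9.02, 16.1, 23.0, 25.5 and 26.2 in control, 4.50, 6.82, 6.12, 6.33 and 5.10 in dehydrated and 4.74, 13.0, 11.2, 4.01 and 19.6 CPM in rehydrated camels in the cortex. The medulla gave 2.82, 2.59, 7.01, 7.35 and 10.7 in control, 4.04, 3.95, 0.512, 1.22 and 1.25 in dehydrated and 2.60, 2.58, 4.96, 2.54 and 5.04 CPM in rehydrated camels. The dehydrated cortex lay below every control library (log2 fold change -1.79, SE 0.45, adjusted p = 0.0255, up to 0.0707 without cortex control 4), and the medulla, with overlap, was not called (-1.48, SE 0.47, adjusted p = 0.121).

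SLC30A2, which moves zinc into vesicles, was called lower in the dehydrated medulla. There it stood at 3.63, 2.26, 8.18, 3.60 and 8.89 in control, 2.25, 3.06, 0.598, 1.22 and 1.72 in dehydrated and 3.20, 1.99, 1.94, 4.82 and 3.13 CPM in rehydrated camels. Dehydrated library 2 lay above control library 2 (log2 fold change -1.58, SE 0.39, adjusted p = 0.0305, up to 0.129 without medulla control 5). The cortex gave 14.0, 11.6, 7.88, 15.0 and 16.3 in control, 7.25, 7.55, 8.05, 7.19 and 7.17 in dehydrated and 8.79, 11.4, 3.85, 10.1 and 16.2 CPM in rehydrated camels, and the test did not pass (-0.80, SE 0.35, adjusted p = 0.272).

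SLC30A9, of the zinc exporter family, had the highest level per kb of these 9. It stood at 193, 217, 230.3, 194 and 226 in control, 179, 208, 174, 221 and 135 in dehydrated and 163, 213, 176, 186 and 149 CPM in rehydrated camels in the cortex. The medulla gave 125, 112, 99.3, 127 and 122 in control, 95.5, 135, 118, 124 and 101 in dehydrated and 79.9, 91.2, 78.2, 83.95 and 83.3 CPM in rehydrated camels. It was lower in the medulla in each condition (-0.85 in controls), and lower in rehydrated than in dehydrated medulla without overlap (log2 fold change -0.46, SE 0.12, adjusted p = 0.0346, up to 0.101 without medulla rehydration 1).

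SLC39A3, another zinc importer, was called higher in rehydrated (4.20, 13.3, 18.5, 5.77 and 14.4 CPM) than in dehydrated cortex (3.74, 4.55, 4.82, 4.37 and 5.03 CPM), with overlap (log2 fold change 1.30, SE 0.32, adjusted p = 0.0266, up to 0.0936 without cortex rehydration 3). Rehydrated libraries 2, 3 and 5 held the highest values. Of the zinc carriers, the 3 called with dehydration against control were thus all lower, the exporter SLC30A1 and the vesicle carrier SLC30A2, which move zinc out of the cytosol, and the importer SLC39A4. All 3 were listed for RNA differences between dehydrated and control camels in these same libraries, so their shared direction is a description and supports nothing. The copper importer SLC31A1, the magnesium carrier SLC41A3, SLC39A8 and SLC39A14 were called in no comparison of conditions.

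Vitamins, nucleosides, choline and related substrates are carried by 9 members. SLC29A1 (ENSCDRG00005015969, chr20:31757132-31766895), an equilibrative nucleoside transporter, rose in the dehydrated cortex. It stood at 28.1, 27.9, 22.6, 29.4 and 31.4 in control, 93.6, 105, 73.0, 72.1 and 59.9 in dehydrated and 30.2, 44.5, 45.02, 36.9 and 32.7 CPM in rehydrated camels there. Every dehydrated library lay above every control and rehydrated library (log2 fold change 1.53, SE 0.27, adjusted p = 0.0019, up to 0.00726 with 1 library left out), and the fall with rehydration was called (log2 fold change -1.09, SE 0.26, adjusted p = 0.0249, up to 0.0759 without cortex dehydration 2). The medulla gave 50.0, 58.6, 63.5, 29.1 and 40.2 in control, 94.1, 57.5, 78.3, 47.9 and 78.4 in dehydrated and 54.6, 43.8, 128, 63.8 and 32.5 CPM in rehydrated camels, with overlap (0.56, SE 0.26, adjusted p = 0.341).

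SLC28A2, a sodium-coupled nucleoside transporter, fell in the dehydrated cortex. It stood at 12.5, 12.59, 8.97, 15.8 and 11.3 in control, 2.75, 2.82, 9.47, 3.68 and 3.65 in dehydrated and 7.57, 6.32, 2.45, 7.67 and 4.16 CPM in rehydrated camels. Dehydrated library 3 alone reached the controls (log2 fold change -1.41, SE 0.34, adjusted p = 0.0213, up to 0.0695 without cortex dehydration 1). The medulla gave 2.01, 1.11, 1.78, 4.49 and 3.51 in control, 1.56, 2.04, 1.20, 1.06 and 1.16 in dehydrated and 1.32, 1.41, 0.424, 1.68 and 1.19 CPM in rehydrated camels, lower than in the cortex in each condition (-2.25 in controls).

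SLC52A3 (ENSCDRG00005013920, chr19:20732788-20738289), a riboflavin transporter, rose with dehydration in both tissues. The cortex gave 1.62, 1.96, 0.690, 1.31 and 0.649 in control, 4.58, 2.09, 3.40, 3.08 and 3.96 in dehydrated and 2.75, 1.56, 1.66, 2.32 and 2.94 CPM in rehydrated camels. The medulla gave 1.39, 4.20, 2.23, 1.82 and 1.54 in control, 5.70, 6.44, 7.86, 5.74 and 5.24 in dehydrated and 4.30, 4.92, 8.17, 6.50 and 2.42 CPM in rehydrated camels. Dehydrated and control libraries did not overlap in cortex (log2 fold change 1.43, SE 0.39, adjusted p = 0.043, up to 0.109 without cortex dehydration 1) or medulla (log2 fold change 1.45, SE 0.30, adjusted p = 0.00782, up to 0.033 with 1 library left out). Rehydrated values overlapped both other groups in either tissue, and neither tissue was called in rehydration against control (0.82 and 1.20).

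SLC46A2, of the folate carrier family, rose in the dehydrated cortex. It stood at 2.55, 2.25, 1.48, 3.14 and 2.69 in control, 8.70, 5.82, 6.46, 4.45 and 6.04 in dehydrated and 2.06, 6.63, 1.40, 1.62 and 2.51 CPM in rehydrated camels. Dehydrated libraries lay above every control library (log2 fold change 1.37, SE 0.38, adjusted p = 0.0481, up to 0.127 without cortex dehydration 1), and rehydrated library 2 was the 1 rehydrated library in the dehydrated range. The medulla gave 2.49, 1.65, 1.22, 1.58 and 2.67 in control, 2.16, 1.34, 1.84, 1.22 and 1.80 in dehydrated and 1.36, 0.547, 3.33, 2.49 and 0.873 CPM in rehydrated camels, with overlap (-0.22, SE 0.39, adjusted p = 0.863).

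SLC49A4, a lysosomal membrane carrier, fell in the dehydrated cortex. It stood at 39.8, 43.9, 17.7, 37.4 and 28.9 in control, 22.7, 17.0, 22.9, 16.4 and 19.2 in dehydrated and 28.4, 20.7, 16.1, 24.1 and 19.1 CPM in rehydrated camels. Control library 3 overlapped the dehydrated libraries (log2 fold change -0.77, SE 0.20, adjusted p = 0.0339, up to 0.112 without cortex control 2). The medulla gave 24.8, 20.1, 28.2, 24.9 and 18.2 in control, 25.4, 18.7, 18.3, 18.2 and 20.5 in dehydrated and 13.7, 20.9, 15.9, 11.5 and 16.7 CPM in rehydrated camels, with overlap (-0.20, SE 0.20, adjusted p = 0.72).

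SLC23A1, which reclaims vitamin C, had the highest level per kb of these 9. It stood at 153, 159.8, 127, 156 and 135 in control, 330.2, 344, 451, 288 and 457 in dehydrated and 241, 102, 182, 341 and 336 CPM in rehydrated camels in the cortex. The medulla gave 163, 45.7, 159, 199 and 279 in control, 197, 221, 42.5, 81.5 and 162 in dehydrated and 80.4, 96.4, 66.5, 182 and 152 CPM in rehydrated camels. All dehydrated cortex libraries lay above the control libraries, without a call (1.36, SE 0.39, adjusted p = 0.0578), and medulla was lower than cortex in dehydrated camels (-1.41, SE 0.39, adjusted p = 0.00244) but not in controls (0.21, SE 0.38, adjusted p = 0.645).

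SLC44A1, a choline transporter, had the largest gap between tissues of these 9, toward the medulla (log2 fold change 2.48, SE 0.59, adjusted p = 0.000837 in controls). It stood at 9.53, 10.8, 2.17, 4.45 and 3.06 in control, 7.48, 6.00, 12.3, 3.08 and 6.67 in dehydrated and 9.40, 2.03, 0.876, 16.5 and 3.799 CPM in rehydrated camels in the cortex. The medulla gave 24.7, 48.7, 17.6, 44.5 and 35.6 in control, 41.3, 90.5, 100.1, 146 and 31.2 in dehydrated and 43.0, 103, 12.1, 33.3 and 87.3 CPM in rehydrated camels. The medulla values overlapped between dehydrated and control camels (1.26, SE 0.53, adjusted p = 0.268). SLC46A3, a lysosomal carrier, was lower in rehydrated (44.1 to 68.5 CPM) than in dehydrated medulla (77.3 to 114 CPM) without overlap (log2 fold change -0.83, SE 0.14, adjusted p = 0.00107, up to 0.00571 with 1 library left out), the smallest adjusted p of a member in that comparison. SLC44A2, a second choline transporter, was called in no comparison of conditions.

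Mitochondrial carriers make up 11 members, the largest group after that of organic anions and cations. SLC25A4, which exchanges ADP for ATP across the inner membrane, had the highest level per kb. It stood at 566, 638, 736, 725 and 918 in control, 834, 808, 604, 702 and 464 in dehydrated and 767, 2017, 1090, 1113 and 859 CPM in rehydrated camels in the cortex. The medulla gave 686, 895, 827, 683 and 596 in control, 574, 441, 479.9, 366 and 448 in dehydrated and 642, 697, 1167, 825 and 544 CPM in rehydrated camels. It was lower in the medulla of dehydrated and rehydrated camels (-0.56 and -0.59) and not of controls (0.04, SE 0.22, adjusted p = 0.879), and not called between conditions, although every dehydrated medulla library lay below every control library (-0.68, SE 0.22, adjusted p = 0.138).

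SLC25A45 showed the largest gap between tissues of the mitochondrial carriers. It stood at 62.1, 51.8, 41.2, 73.6 and 63.9 in control, 28.5, 38.0, 30.8, 42.7 and 38.2 in dehydrated and 25.4, 20.7, 48.8, 19.3 and 35.3 CPM in rehydrated camels in the cortex. The medulla gave 11.0, 5.84, 8.24, 11.9 and 11.3 in control, 10.3, 9.33, 5.17, 5.19 and 8.41 in dehydrated and 7.29, 5.70, 7.87, 9.20 and 6.83 CPM in rehydrated camels. Cortex exceeded medulla in each condition (log2 fold change -2.60, SE 0.25, adjusted p = 3.59e-09 in controls), and no comparison of conditions was called. The study's own lists held SLC25A45 for rehydration against control of the cortex.

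SLC25A29, which carries basic amino acids into mitochondria, was the 1 mitochondrial carrier called with dehydration, in the medulla. There it stood at 14.4, 20.4, 21.1, 10.6 and 22.2 in control, 7.26, 8.597, 12.8, 9.78 and 13.4 in dehydrated and 14.8, 15.7, 13.9, 15.5 and 11.2 CPM in rehydrated camels. Control library 4 fell within the dehydrated range (log2 fold change -0.77, SE 0.21, adjusted p = 0.0496, up to 0.145 without medulla control 5). The cortex gave 12.1, 10.0, 7.00, 10.7 and 12.5 in control, 9.84, 5.55, 11.1, 9.50 and 10.9 in dehydrated and 8.33, 7.02, 6.39, 7.95 and 9.103 CPM in rehydrated camels, with overlap (-0.15, SE 0.22, adjusted p = 0.848).

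SLC25A25, a carrier of adenine nucleotides, was called higher in rehydrated (125, 632, 221, 249 and 102 CPM) than in dehydrated cortex (93.4, 121, 123, 113 and 81.9 CPM). The log2 fold change was 1.32 (SE 0.31, adjusted p = 0.0216), and without rehydrated library 2, the highest, it was 0.71 (adjusted p = 0.122). SLC25A21, a carrier of oxodicarboxylates, rose from 7.36 to 9.33 CPM in dehydrated to 13.8 to 20.8 CPM in rehydrated cortex, without overlap (log2 fold change 0.99, SE 0.27, adjusted p = 0.0492, up to 0.118 without cortex dehydration 2). With dehydration the log2 fold changes of the 11 were negative for 10 in the cortex (median -0.23, against 0.0033 over all genes) and for 8 in the medulla (median -0.56, against 0.0119), with 0 and 1 called. Of all 15376 genes tested, 7606 were negative in the cortex and 7479 in the medulla. Several of the 11 were listed for RNA differences in these same libraries, so for them these counts support nothing. Between the tissues, 6 of the 11 were called lower and 2 higher in the medulla of controls, and 8 lower and 2 higher in dehydrated and in rehydrated camels. SLC25A46, a protein of the outer membrane, was higher in the medulla in each condition (1.35 in controls), SLC25A29 in control and rehydrated camels and SLC25A40 in dehydrated camels.

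The last 4 members sit in lysosomes, the endoplasmic reticulum or the Golgi apparatus. SLC35B1, of the nucleotide sugar transporter family, had the highest level per kb of them. It stood at 85.0, 91.9, 87.0, 122 and 120.2 in control, 91.4, 100.3, 93.6, 104 and 85.7 in dehydrated and 95.5, 94.9, 99.5, 84.8 and 77.99 CPM in rehydrated camels in the cortex. The medulla gave 72.3, 58.5, 72.2, 61.4 and 55.0 in control, 62.6, 53.3, 66.2, 53.4 and 60.7 in dehydrated and 56.7, 48.1, 66.0, 66.2 and 45.05 CPM in rehydrated camels. The medulla was lower in each condition (-0.67, -0.68 and -0.68), and no change between conditions was called.

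SLC17A5, which exports sialic acid from lysosomes, showed the largest gap between tissues of the 4 (log2 fold change -1.01, SE 0.18, adjusted p = 4.29e-05 in controls). It stood at 139.7, 179, 121, 128 and 125 in control, 106, 91.9, 99.8, 125 and 96.3 in dehydrated and 87.0, 210.3, 117, 174 and 107 CPM in rehydrated camels in the cortex. The medulla gave 64.8, 47.0, 65.6, 81.4 and 85.3 in control, 64.1, 71.5, 59.5, 64.6 and 63.4 in dehydrated and 49.8, 66.0, 68.9, 73.5 and 64.8 CPM in rehydrated camels. With dehydration its log2 fold changes were -0.42 in cortex and -0.09 in medulla. SLC33A1, which carries acetyl-CoA into the endoplasmic reticulum, was called higher in the medulla of dehydrated camels (0.65, SE 0.18, adjusted p = 0.00242) and lower in that of rehydrated camels (-0.49, SE 0.18, adjusted p = 0.0204). None of the 4 was called in a comparison of conditions.

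Members were also split by the tissue in which they were higher, taken from the rehydrated camels, which share no library with dehydration against control. The 21 members higher in the medulla had a median log2 fold change of 0.76 in the dehydrated cortex (16 positive and 5 negative, 5 called higher and 0 lower), against 0.05 for all 5079 genes higher in the medulla (84 called higher and 10 lower). The 40 members higher in the cortex had a median of -0.26 (13 positive and 27 negative, 1 called higher and 5 lower), against -0.07 for all 4323 such genes (44 called higher and 127 lower). In the dehydrated medulla the medians were 0.24 for the 21 (4 called higher and 2 lower), against 0.14 for all such genes (45 called higher and 45 lower), and -0.30 for the 40 (0 called higher and 4 lower), against -0.13 (10 called higher and 84 lower). Since 48 of the 83 members were listed for RNA differences in these libraries, their medians and counts are a description and are not evidence that they moved more than other genes. Of the 12 markers, UMOD, AQP2, AQP3, PECAM1, COL1A1, COL3A1 and ACTA2 were called higher in the rehydrated medulla. Their log2 fold changes in the dehydrated cortex ran from -0.86 (COL3A1) to 2.36 (AQP3), 5 positive and 2 negative, with AQP3 and PECAM1 called. The markers carried an identifier only through the study's lists of differing genes and proteins, so this count is a description too.

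In fits that left out each library in turn, 12 of the 48 calls of a member in a comparison of conditions or responses kept an adjusted p under 0.05 every time. In dehydration against control these were SLCO3A1, SLC7A7, SLC29A1, SLC45A3 and SLC22A13 in the cortex and SLC30A1, SLC16A14, SLC52A3, SLC45A3 and SLC27A3 in the medulla. In rehydration against dehydration they were SLCO3A1 in the cortex and SLC46A3 in the medulla. The share of all called genes that kept their calls every time was not computed, so this count is a description. Leaving out both medulla libraries low in GATM together ended 5 of the 13 calls in the dehydrated medulla, those of SLC43A1 (given above), SLC27A3 (log2 fold change -0.99, adjusted p = 0.0537), SLC25A29 (-0.81, adjusted p = 0.101), SLC9A2 (-1.24, adjusted p = 0.114) and SLC4A11 (0.86, adjusted p = 0.0832). In rehydration against dehydration of the medulla, the calls of SLC27A3 (0.76, adjusted p = 0.0916), SLC4A11 (-0.74, adjusted p = 0.0787) and SLC30A9 (-0.45, adjusted p = 0.0807) were lost as well. So was that of SLC45A3 in rehydration against control (1.34, adjusted p = 0.051).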

How the data were processed

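Per the labels and the study's methods, poly-A RNA was sequenced as reverse-stranded read pairs, trimmed with BBDuk and aligned to CamDro2. The methods and the column names point to different aligners. The authors deposited 1 table of raw counts per gene, made with featureCounts 1.6.2 and Ensembl 100 annotation, and the 30 libraries were grouped by the labels.

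Genes passing edgeR's filterByExpr (minimum count 10, minimum total 15, leaving 15376 of 22444) were fitted in 1 quasi-likelihood model of 6 groups with TMM factors (edgeR 4.0.16, R 4.3.3, common biological coefficient of variation 34.0%), with Benjamini-Hochberg adjustment and a threshold of 0.05. The p-values of comparisons between conditions measure the spread between camels. Those between tissues and of the difference in response come from the same fit, which had no term for the camel although each camel gave both tissues. Counting error depends on the depth of 12634346 to 20005136 counts. Symbols came from the study's lists, which pair 4197 genes with an identifier. The members, marker lists and substrate groups were chosen with earlier results of these data known, and 1 medulla list was held only in part and not used here. Results of some members are not reported here. Values in every library are given for members called in dehydration against control in either tissue and, in each substrate group, for the one with the largest difference between tissues in controls and the one with the highest level per kb. The text gives no fold change where no library of a group held more than 3 counts, and the plots mark such fitted values. The fit was tested on simulated data with known changes.

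Alternatives were DESeq2 1.42.0, its size factors in edgeR, other filters, RNA integrity as a covariate, a block by replicate number or camel, only the groups compared, each library left out in turn and a threshold of 0.01. An older quasi-likelihood fit and a fit without 2 medulla libraries were added after seeing the data. Cortex and medulla are paired by camel in the labels, and same-camel deviations from the group means correlated at 0.139 in control, 0.0934 in dehydrated and 0.0487 in rehydrated camels. Set against all 120 pairings of the libraries, the exact permutation p was 0.075, 0.108 and 0.417. For the rehydrated camels the labels' individual names pair the tissues while their sample descriptions number them differently, so that pairing, its correlation and the counts with the camel as a block are less certain. Within a tissue, libraries of different conditions share only a number. Such libraries, from different camels, correlated by number at -0.0547 to 0.207.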

Additional observations from a re-analysis of the deposited data

Results flagged for a closer look

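In 19 of 258 sets of 5 libraries, or 7.36%, 1 library of a named member stood apart from the other 4 by Dixon's criterion. For normally distributed values chance meets it in about 1 set in 20. It was applied to untransformed CPM, so the share met by chance may differ here. Cortex rehydration library 2 held 3 of the 19, SLC25A4 at 2017 CPM (767 to 1113 in the others), SLC46A2 at 6.63 CPM (1.40 to 2.51) and SLC6A9 at 3.12 CPM (0.876 to 1.41). SLC6A9 also stood apart in cortex control library 5 at 3.52 CPM (0.788 to 1.57) and in medulla control library 2 at 8.39 CPM (3.90 to 5.02). Medulla control library 2 was also low for SLC43A1 at 2.34 CPM (4.00 to 4.47).

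SLC9A4 stood apart in cortex control library 1 at 2.04 CPM (0 to 0.371), cortex rehydration library 4 at 0.0703 CPM (0 in the others) and medulla rehydration library 3 at 2.30 CPM (0 to 0.625). SLC16A14 in cortex rehydration library 5, at 0.0717 CPM, was the 1 library above 0. Both of these cortex rehydration values are 1 count, and with 0 in the other libraries the criterion is met by construction.

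In the other cortex control libraries, SLCO3A1 was high in library 5 at 25.8 CPM (16.3 to 17.8), SLC13A1 in library 4 at 271 CPM (155 to 170.3) and SLC5A10 in library 3 at 389.5 CPM (71.0 to 148). In dehydrated cortex, SLC13A1 was high in library 2 at 87.7 CPM (38.9 to 49.7), SLC28A2 was high in library 3 at 9.47 CPM (2.75 to 3.68), and SLC25A29 was low in library 2 at 5.55 CPM (9.50 to 11.1). In rehydrated cortex, SLC34A2 was high in library 3 at 70.3 CPM (20.5 to 25.4) and SLC20A1 was low in library 4 at 127 CPM (146.5 to 151.5). In dehydrated medulla, SLC6A19 was high in library 2 at 116.5 CPM (4.91 to 23.1).

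The dehydration response of SLC27A3 differed between medulla and cortex by -1.82 on the log2 scale (adjusted p = 0.0182 by edgeR). Its values in both tissues are given above.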

How the results depend on the processing

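Counts of called members in each comparison of tissues stayed within 1.5 times the main count under every alternative run, at 48 to 64, and ran from 53 to 60, 56 to 62 and 57 to 62 in control, dehydrated and rehydrated camels with 1 library left out. With the camel as a block they were 57, 60 and 59, and with RNA integrity as a covariate 58, 48 and 51. In dehydration against control of the cortex, 14 members were called, 26 with only the groups compared, 28 with DESeq2, 5 at a threshold of 0.01 and 5 to 12 with 1 library left out. The covariate of RNA integrity left 10 there. In the medulla, 13 were called, 6 with the older quasi-likelihood fit, 7 with RNA integrity as a covariate, 2 with only the groups compared, 5 at 0.01 and 5 to 13 with 1 library left out. In rehydration against dehydration of the cortex, 14 were called, 1 at 0.01 and 2 to 11 with 1 library left out. In the medulla, 5 were called, 1 with only the groups compared, 10 with DESeq2, 3 without both medulla libraries low in GATM, 1 at 0.01 and 2 to 7 with 1 library left out. In rehydration against control of the cortex, 0 were called by edgeR, 4 by DESeq2 and 0 to 1 with 1 library left out. In the medulla, 1 was called, 0 with the older fit, with RNA integrity, with only the groups compared and at 0.01, 6 with DESeq2, 5 without the low-GATM libraries and 0 to 4 with 1 library left out. In the test of the dehydration response between tissues, 1 was called, 0 with the camel as a block, with RNA integrity, without the low-GATM libraries and at 0.01, 5 with DESeq2 and 0 to 3 with 1 library left out. Where counts moved, the cause was not tested. With RNA integrity as a covariate the split of higher and lower was 3 and 4 in the dehydrated medulla and 5 and 6 in rehydration against dehydration of the cortex. Within a tissue, where replicates share only a number, a block on it gave 14, 12, 15, 6, 0 and 1 calls in the order above, and the last was a lower member in place of SLC45A3. Of 490 values of called members with 1 library left out, 231 were over the threshold and 0 turned direction. Of the 48 calls of a member in a comparison of conditions or responses, 17 were lost with RNA integrity as a covariate. Fits of only the groups compared lost 24 of them. Depth limits SLC10A6, SLC16A14, SLC9A4 and SLC29A4, whose cortex counts are few. The size of the gaps between tissues of SLC14A1 and SLC6A12 also rests on few cortex counts.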

Other observations

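SLC29A4, left out by the filter, had 0 counts in each control cortex library, 0, 5, 5, 3 and 14 counts in dehydrated and 0, 0, 0, 1 and 27 in rehydrated cortex. In the medulla it had 9, 6, 3, 0 and 5 counts in control, 7, 6, 2, 1 and 10 in dehydrated and 5, 1, 5, 3 and 5 in rehydrated camels.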
